A study of Mus musculus with 4 samples.

Results

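Integrins and leukocyte adhesion molecules were followed as 32 member genes among the 22911 genes that had a named probe on the arrays. The list was drawn up by name: 20 integrin subunits, and 12 surface molecules that integrins bind or that work beside them. Each gene was found through the accession of its probes, and its brightest probe over the 4 arrays stands for it. All 32 had a probe. The samples were peritoneal exudate cells from LysM-St18flox mice and from wild-type mice, each at 3 h of lipopolysaccharide (LPS, the Gram-negative cell wall component that Toll-like receptor 4 senses) and at 0 h, with 1 array in each of the 4 groups. All mice had been given 4% thioglycollate, and the lavage was taken after 3 days. The labels call the cells peritoneal macrophages and name a single mouse as the source of each sample. LysM is the lysozyme promoter, commonly used to drive Cre recombinase in macrophages and granulocytes, and the zinc finger protein St18 acts in transcription. The age and strain of the mice, the dose of LPS, and how far the gene was deleted in these cells are not given in the sources used here.

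Integrins are receptors made of an alpha and a beta subunit that span the membrane and tie the cell to matrix or to other cells. The beta subunit Itgb2 pairs with Itgal, Itgam and Itgax in leukocytes, and its main ligand on other cells is ICAM-1. VCAM-1 is the ligand of the pair of Itga4 with Itgb1. Itgav pairs with several beta subunits that bind vitronectin or latent TGF-beta. In leukocytes that meet a danger signal, integrins help to set how firmly the cell is held and contribute to engulfment. ICAM-1 and VCAM-1 are textbook genes of the NF-kB response.

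The level of a gene is given as its normalized log2 signal, the log2 of the processed spot signal minus the 75th percentile of its array. Levels can be set against each other between arrays for 1 probe, not between probes. A gene was measured in a comparison when its probe was well above background on both arrays, and it was called when those differed by at least 2-fold, a log2 difference of 1. With 1 array per group there is no replicate check of any difference and no p-value. The 75th percentile of an array lay between 672 and 1067 units of processed signal, 52.2% to 55.6% of spots were well above background, and none reached saturation. For probes printed 10 times the spots varied by a median SD of 0.03 to 0.04 (log2), which covers spot error only. The wild-type 0 h array stood apart: pairs of probes of the same gene disagreed there by a median of 0.39, against at most 0.22 on another array (4217 genes). The LPS response of LysM-St18flox cells and the genotype difference at 3 h do not use that array. In the check of the targeted gene, the brightest of 2 St18 probes was at -4.82 and -4.54 in LysM-St18flox cells at 3 h and 0 h, not well above background, against -1.66 and -1.31 in wild-type cells. The other St18 probe gave no array with a signal well above background. In LysM-St18flox cells St18 was thus lower by at least 8.48-fold at 3 h and by at least 7.07-fold at 0 h, and whether the brighter probe lies in the altered stretch is not known here. Such a bound sets the bright signal against whichever is higher, the lowest signal well above background on the dim array or what the dim probe itself read.

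The cell type label was checked with marker lists. All 10 macrophage markers, among them Adgre1, Csf1r and Mertk, were well above background on every array. Markers of other cell types were also present. The summed normalized signal of 10 B cell markers was 18.4 at 3 h and 23.1 at 0 h in LysM-St18flox cells, against 3.17 and 4.04 in wild-type cells. All 10 were well above background in LysM-St18flox cells, against 7 in wild-type cells, where Cd79a, Ebf1 and Blk were not. The sum of 10 mesothelial and fibroblast markers was 4.51 and 5.75, against 12.6 and 11.9. Between genotypes, median log2 differences at 3 h and 0 h were -0.09 and -0.25 for macrophage markers, 0.69 and 0.79 for large peritoneal macrophage markers, 1.51 and 0.98 for mast cells, 0.81 and 1.12 for eosinophils, 3.27 and 2.79 for erythroid cells, -0.66 and -0.65 for platelets, and 0.40 and -0.27 for endothelium. In bulk samples, fewer cells of a type and less RNA per cell cannot be told apart.

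The upstream sequences below are those of the members called higher after LPS in both genotypes for which RefSeq's table gives a start (Itgal and Pvr are named only), because these members share a response and the sequence shows what they do and do not share next to the start. Each is the 250 bases before the start on the gene's own strand, 5′ to 3′, from RefSeq on GRCm38.p6. Capitals mark matches to any of the motifs searched, on either strand.
Icam1, chr9:21015690-21015939, plus strand: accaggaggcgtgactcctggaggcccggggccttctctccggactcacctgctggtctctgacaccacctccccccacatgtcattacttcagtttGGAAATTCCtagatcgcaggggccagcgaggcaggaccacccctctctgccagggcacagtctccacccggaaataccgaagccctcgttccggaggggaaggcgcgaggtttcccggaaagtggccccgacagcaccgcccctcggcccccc
Itgav, chr2:83724147-83724396, plus strand: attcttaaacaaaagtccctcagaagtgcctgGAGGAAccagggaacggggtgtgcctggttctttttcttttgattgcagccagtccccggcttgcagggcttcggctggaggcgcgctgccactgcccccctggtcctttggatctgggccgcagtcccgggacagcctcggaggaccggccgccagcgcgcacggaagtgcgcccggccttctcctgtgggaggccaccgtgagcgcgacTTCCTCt
Cd44, chr2:102901666-102901915, minus strand: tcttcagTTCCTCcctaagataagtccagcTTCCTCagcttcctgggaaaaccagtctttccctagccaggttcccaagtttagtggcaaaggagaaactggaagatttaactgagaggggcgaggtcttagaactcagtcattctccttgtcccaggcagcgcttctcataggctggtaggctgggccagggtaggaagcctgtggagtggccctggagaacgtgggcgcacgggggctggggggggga
F11r, chr1:171437311-171437560, plus strand: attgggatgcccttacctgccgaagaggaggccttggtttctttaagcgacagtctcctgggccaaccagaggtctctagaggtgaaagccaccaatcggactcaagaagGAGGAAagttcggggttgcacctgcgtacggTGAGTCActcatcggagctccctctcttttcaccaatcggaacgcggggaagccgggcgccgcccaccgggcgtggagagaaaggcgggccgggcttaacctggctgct

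In the Icam1 window the match is GGAAATTCC, from base -153 to base -145 before the start. It fits the form GGAANTTCC, which resembles sites bound by NF-kB. That form was found in 0.844% of the upstream windows of 27025 genes, and Icam1 was the only member with it among the 22 members in that table. The other kappa B form searched, GGG and TTCC with 3 free bases between them, was found in 4.6% of all windows and in none of these 4. The F11r window holds TGAGTCA, a match to the AP-1 form TGANTCA that 6.87% of windows hold. The ETS form GAGGAA was in the windows of Itgav, Cd44 and F11r, and in 23.1% of all windows, and the interferon form, GAAA repeated with a gap of 2 free bases (3.04% of all windows), was in none of the 4. These are letter matches in the window and not binding sites. No protein sequences were printed.

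The response to LPS was led by the ligands. In LysM-St18flox cells, 3 h of LPS left 7 of 26 measured members higher by 2-fold or more (26.9%, against 8.12% of the 12976 genes measured) and 0 were 2-fold lower (8.97% of all genes). In wild-type cells 9 of 28 were higher (32.1%, against 9.04% of 12589 genes) and 1 was lower (11.6% of all genes). Both shares of higher members were above their background, on a list chosen with earlier results of these data known. Icam1, Itgal, Pvr, Itgav, Cd44 and F11r were called higher in both genotypes, and Vcam1 had a lower bound past 2-fold in LysM-St18flox cells and was called in wild-type cells. The median log2 difference of the measured members was 0.16 in LysM-St18flox cells and 0.16 in wild-type cells, against -0.09 and -0.11 over all measured genes. With quantile normalization the member medians were 0.01 and -0.01, against -0.16 and -0.18 over all genes. With the bounds counted at their value, the member medians were 0.22 and 0.19.

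**Figure D1:**
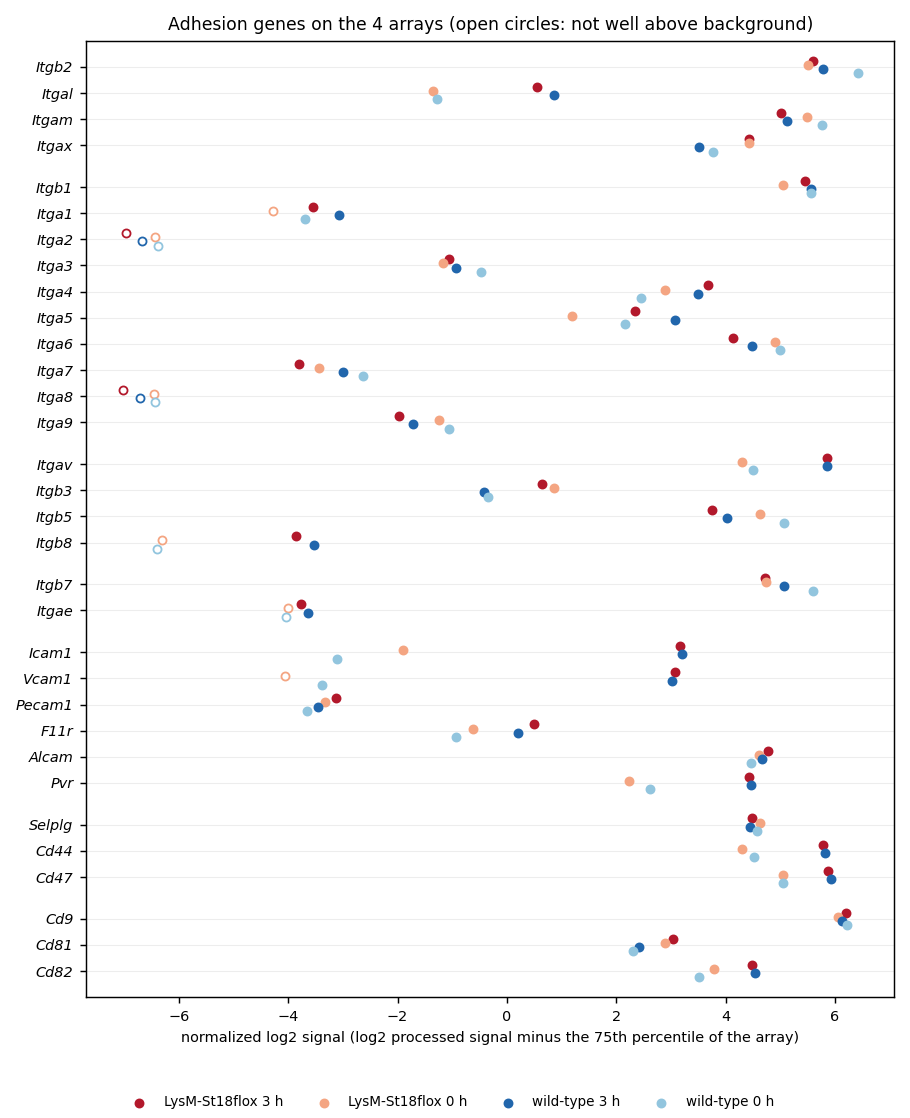
Normalized log2 signal (horizontal axis) of the brightest probe of each of the 32 members, 1 row a gene, with 1 point for each of the 4 arrays and open circles where the probe was not well above background. Rows should be read one at a time, since levels of different probes cannot be compared. For Icam1 and Vcam1 the 3 h arrays sit near 3 and the 0 h arrays below -1.

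**Figure D2:**
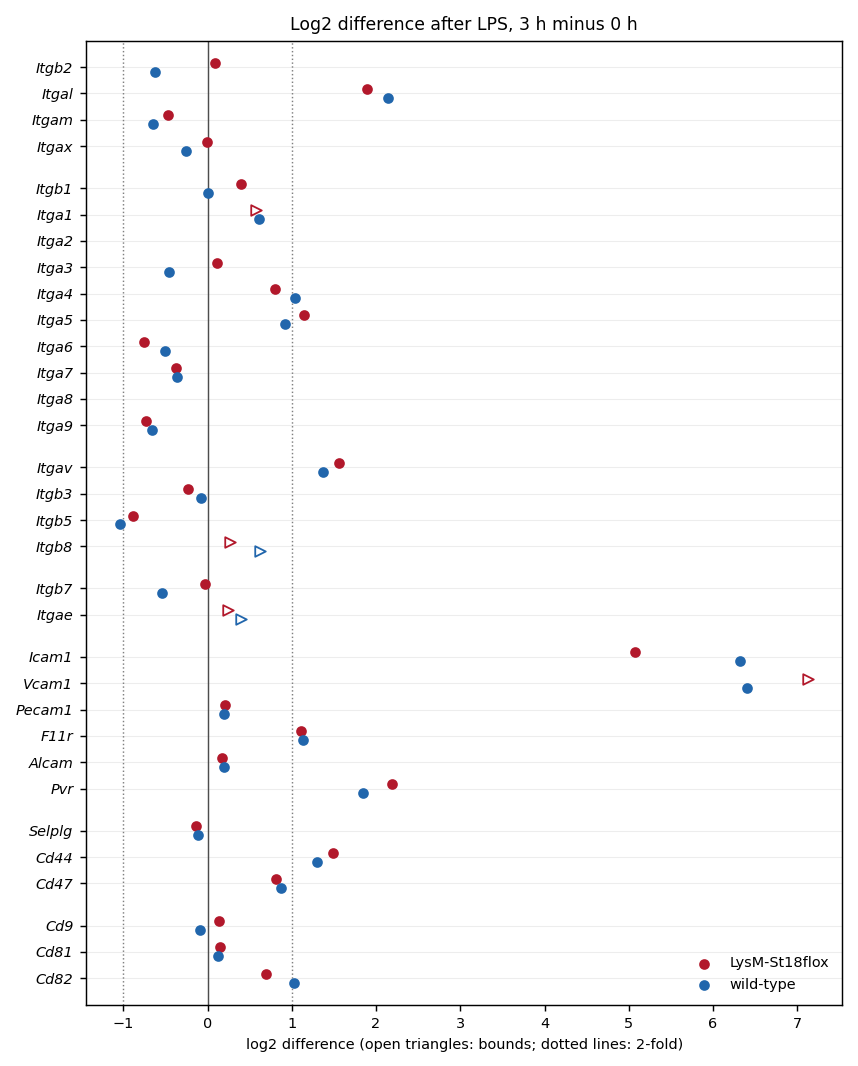
Log2 difference after LPS (3 h minus 0 h) of each member in LysM-St18flox cells and in wild-type cells, 1 array per group, with open triangles for bounds and dotted lines at 2-fold. Icam1 and Vcam1 stand at 5.07 or more in both genotypes, and the other members lie between -1.03 and 2.19.

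Icam1 encodes the immunoglobulin-type ligand of the beta 2 integrins. Its level was 3.16 at 3 h, against -1.91 at 0 h in LysM-St18flox cells, and 3.20 at 3 h, against -3.11 at 0 h in wild-type cells. The 3 h levels of the genotypes were close, and the wild-type 0 h level was the lowest of the 4. Icam1 was 33.6-fold higher after LPS in LysM-St18flox cells (log2 5.07) and 79.5-fold higher in wild-type cells (6.31), which placed it at rank 42 of 12976 genes and at rank 23 of 12589 genes. With normexp background correction the log2 differences were 4.69 and 5.34. The gene had 1 probe.

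Vcam1 encodes the ligand of the pair of Itga4 with Itgb1. Its level was 3.07 at 3 h, against -4.06 at 0 h, not well above background, in LysM-St18flox cells, and 3.01 at 3 h, against -3.39 at 0 h in wild-type cells. Both 3 h arrays were high and both 0 h arrays were at or near background. After LPS, Vcam1 was higher by at least 140-fold in LysM-St18flox cells and 84.5-fold higher in wild-type cells (6.40, rank 21; 5.38 with normexp). The other Vcam1 probe was well above background on the 3 h arrays only, at -0.99 and -1.40.

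Pvr (CD155) encodes a nectin-like adhesion molecule that binds receptors on T and NK cells. It stood at 4.43 at 3 h, against 2.24 at 0 h in LysM-St18flox cells, and at 4.46, against 2.62, in wild-type cells. The 3 h arrays of both genotypes lay above both 0 h arrays. The differences were 2.19 and 1.85 (4.57-fold and 3.59-fold), and the other Pvr probe gave 2.05 and 2.12.

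F11r (JAM-A), a junction molecule that also binds the beta 2 integrin with Itgal, stood at 0.49 at 3 h, against -0.62 at 0 h in LysM-St18flox cells, and at 0.20, against -0.94, in wild-type cells. Again the 3 h arrays were the high ones, and the differences were 1.11 and 1.14. Pecam1, a contact molecule of leukocytes, platelets and endothelium, differed by 0.21 in LysM-St18flox cells and 0.20 in wild-type cells. Alcam, a ligand of CD6, differed by 0.17 and 0.19. Neither was near 2-fold. All 5 measured members of this ligand and junction group were above 0 in LysM-St18flox cells (median 1.11), as were all 6 in wild-type cells (median 1.49).

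Among the beta 2 integrins, Itgal, the alpha subunit of LFA-1, differed from its partners. Itgal stood at 0.55 at 3 h, against -1.35 at 0 h in LysM-St18flox cells, and at 0.86, against -1.28, in wild-type cells. It was thus 3.72-fold and 4.42-fold higher after LPS (1.90 and 2.14), with both 3 h arrays above both 0 h arrays. Itgb2, the beta subunit it shares with Itgam and Itgax, stood at 5.59, against 5.51, in LysM-St18flox cells and at 5.79, against 6.41, in wild-type cells. These were differences of 0.08 and -0.63, and the wild-type 0 h array was the highest. Itgam (CD11b, the alpha subunit of Mac-1) differed by -0.47 and -0.64. Itgax (CD11c) stood at 4.43 on both LysM-St18flox arrays, and at 3.52 at 3 h, against 3.77 at 0 h, in wild-type cells. No beta 2 member apart from Itgal was 2-fold apart after LPS.

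The partners of Itgb1 split in direction. Itga5, the alpha subunit of the fibronectin receptor, stood at 2.33 at 3 h, against 1.19 at 0 h in LysM-St18flox cells, and at 3.08, against 2.17, in wild-type cells. Itga4, a subunit of the VCAM-1 receptor, stood at 3.68, against 2.88, and at 3.49, against 2.45. Each was higher at 3 h in both genotypes and passed 2-fold in 1 of them: Itga5 in LysM-St18flox cells (1.14, against 0.91 in wild-type cells) and Itga4 in wild-type cells (0.80 in LysM-St18flox cells, against 1.04). Whether these responses differ between genotypes was not tested, and the values lie near the threshold. The wild-type Itga4 call stayed past 2-fold in 4 of 8 alternative processings, and that of Cd82, described further on, in 5. Both were lost with quantile normalization, and Itga4 also with normexp.

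The shared subunit Itgb1 differed by 0.39 in LysM-St18flox cells and by 0.00 in wild-type cells, where its other probe gave 0.33. The laminin-binding subunit Itga6 was lower at 3 h in both genotypes, by -0.76 and -0.51, and its dimmer probes gave -0.63 and -0.86 in LysM-St18flox cells and -0.72 and 0.08 in wild-type cells. Itga9 differed by -0.73 and -0.66, while its other probe gave 0.23 and 0.35. Itga7, another laminin-binding subunit, differed by -0.37 and -0.36, and Itga3 by 0.11 and -0.45. By their brightest probes none of these 5 was 2-fold apart, while a dim second Itga3 probe, measured in wild-type cells only, gave -1.19. Itga1, a collagen-binding subunit, was well above background on 3 arrays. It was higher at 3 h by a bound of at least 1.49-fold in LysM-St18flox cells and by 0.61 (log2) in wild-type cells. Itga2 and Itga8 stayed below the background limit on all 4 arrays.

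Of the alpha V integrins, Itgav stood at 5.85 at 3 h, against 4.30 at 0 h in LysM-St18flox cells, and at 5.86, against 4.49, in wild-type cells, and was 2.94-fold and 2.58-fold higher (1.56 and 1.37). The 3 h arrays again lay above both 0 h arrays. Its partner Itgb5 went the other way, at 3.75, against 4.64, and at 4.03, against 5.06. Itgb5 was lower by -0.88 in LysM-St18flox cells and by -1.03 in wild-type cells, where it was the only member called lower. With quantile normalization Itgb5 was called lower in LysM-St18flox cells too, and with median centring in neither genotype. Itgb3, the partner in the vitronectin receptor, differed by -0.23 and -0.08, while its dimmer probe gave 0.20 in LysM-St18flox cells and -1.18 in wild-type cells. Itgb8, whose product with Itgav activates latent TGF-beta, was well above background at 3 h only, at -3.86 and -3.52, near the floor of the arrays, and its bounds were at least 1.21-fold and 1.54-fold higher.

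Itgb7, the partner of Itga4 and Itgae in mucosal homing, differed by -0.03 in LysM-St18flox cells and -0.54 in wild-type cells. Itgae (CD103) was well above background at 3 h only, at -3.77 and -3.65, with bounds of at least 1.18-fold and 1.31-fold higher. Neither showed a call.

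Cd44, the hyaluronan receptor, stood at 5.78 at 3 h, against 4.29 at 0 h in LysM-St18flox cells, and at 5.82, against 4.52, in wild-type cells. It was 2.80-fold and 2.46-fold higher (1.48 and 1.30), and both of its other probes were higher too, by 1.66 and 2.06 in LysM-St18flox cells and by 1.84 and 3.08 in wild-type cells. The mean of its probes gave 1.74 and 2.07. Cd47, which binds SIRP-alpha and marks a cell against engulfment, stood at 5.87, against 5.06, and at 5.92, against 5.05. Its differences of 0.81 and 0.87 were alike in size and below 2-fold. Selplg, which encodes the P-selectin ligand PSGL-1, differed by -0.13 and -0.12.

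The tetraspanins organise integrins and other receptors into patches of membrane. Cd82 stood at 4.47 at 3 h, against 3.79 at 0 h in LysM-St18flox cells, and at 4.54, against 3.52, in wild-type cells. It differed by 0.69 in LysM-St18flox cells and by 1.02, a call, in wild-type cells, and its other 3 probes gave 0.71, 0.60 and 0.95 in LysM-St18flox cells, against 1.04, 1.30 and 2.82 in wild-type cells. The dimmest of them was at -2.72 in wild-type cells at 0 h, and at -0.67 or above elsewhere. Cd9 and Cd81 differed by 0.14 and 0.15 in LysM-St18flox cells and by -0.09 and 0.12 in wild-type cells.

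**Figure D3:**
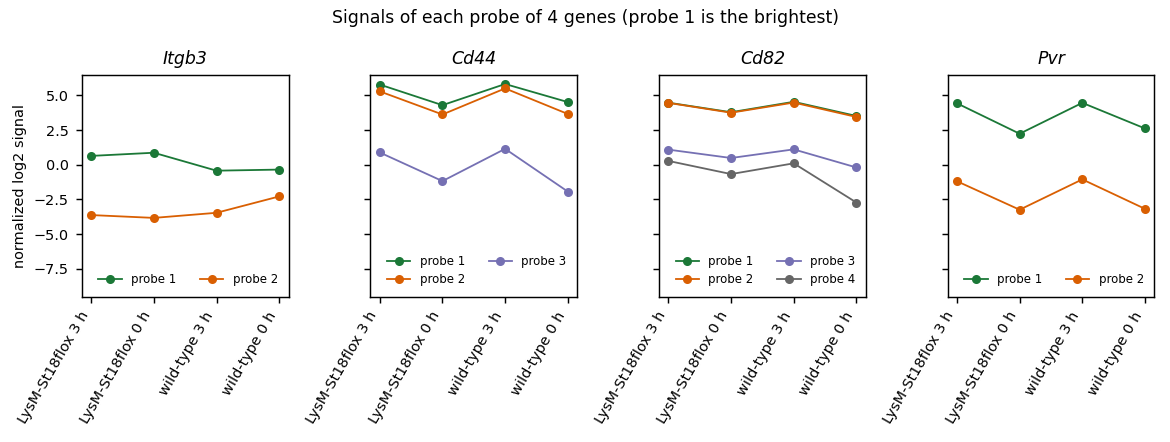
Normalized log2 signal (vertical axis) of every probe of Itgb3, Cd44, Cd82 and Pvr on the 4 arrays (horizontal axis), with probe 1 the brightest and lines joining the points of 1 probe. All probes of Cd44 and Pvr are higher at 3 h than at 0 h in both genotypes, with the dimmest Cd44 probe lowest on the wild-type 0 h array. At 0 h the 2 Itgb3 probes separate the genotypes in opposite directions.

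The comparison of genotypes asked whether cells of LysM-St18flox mice carried a different set of adhesion genes. At 3 h of LPS, 1 of 30 measured members was called higher in LysM-St18flox cells (3.33%, against 1.82% of 13049 genes) and none was lower (1.4% of all genes). At 0 h, 2 of 26 were higher (7.69%, against 3.04% of 12679 genes) and none was lower (3.03% of all genes). Counts of 1 and 2 members do not set the list apart from these backgrounds. The member median was -0.06 at 3 h and -0.13 at 0 h, against -0.01 and -0.03 over all measured genes.

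**Figure D4:**
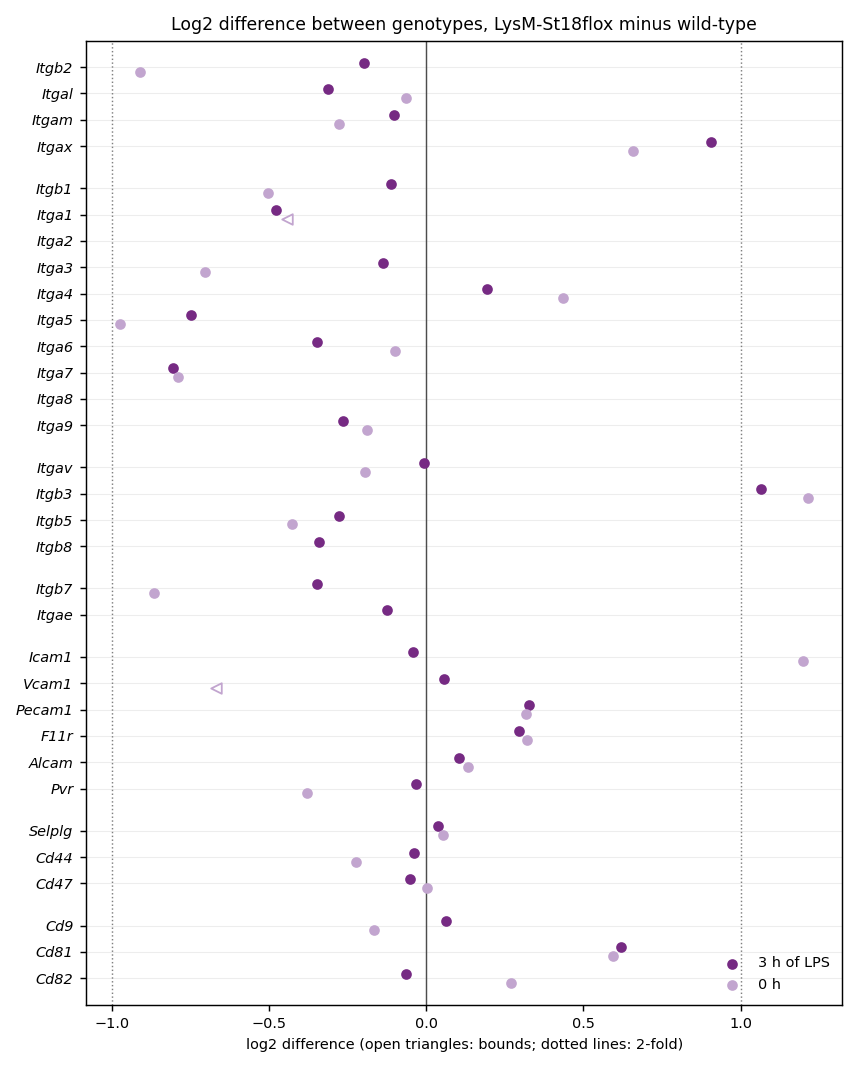
Log2 difference between genotypes (LysM-St18flox minus wild-type) of each member at 3 h of LPS and at 0 h, 1 array per group, with open triangles for bounds and dotted lines at 2-fold. Itgb3 is past 2-fold at both times and Icam1 at 0 h, and no member is past 2-fold in the lower direction.

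Itgb3, which macrophages and platelets use in different pairs, was the member called at both times. It stood at 0.64 at 3 h and 0.87 at 0 h in LysM-St18flox cells, against -0.43 and -0.35 in wild-type cells. By this probe both LysM-St18flox arrays were above both wild-type arrays, with differences of 1.06 at 3 h and 1.21 at 0 h (2.09-fold and 2.32-fold). The other Itgb3 probe opposed it, at -3.62 and -3.83 in LysM-St18flox cells, against -3.46 and -2.28 in wild-type cells, which are differences of -0.16 and -1.55. Averaging both probes left a difference of 0.45 at 3 h and of -0.17 at 0 h. The direction for Itgb3 at 0 h thus depends on the probe. The platelet partner of Itgb3, Itga2b, and the platelet markers Gp9 and Gp1ba stayed below the background limit on all 4 arrays. Of 8 platelet and megakaryocyte markers 3 to 5 were detected per array, with a summed signal of 97.6 and 83.4 in LysM-St18flox cells, against 145.6 and 163 in wild-type cells. The part of platelets in the values of Itgb3 was not tested.

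Icam1 was 2.30-fold higher in LysM-St18flox cells at 0 h (1.20) and differed by -0.04 at 3 h. The difference at 0 h rests on the wild-type 0 h array, the one on which probes disagreed most, and on a dim signal. With normexp background correction it was 0.63. The LPS response of Icam1 was smaller in LysM-St18flox cells by 1.24 on the log2 scale (2.36-fold), the only call among 26 members in the difference of the responses, where 2.41% of 12344 genes were called in that direction and 2.9% in the other. That difference was -0.65 with normexp correction. It was not tested.

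Some members differed in the same direction at both times and below 2-fold. Itgax stood 0.90 higher at 3 h and 0.66 higher at 0 h in LysM-St18flox cells, and its other probe gave 0.94 at 3 h. Cd81, a tetraspanin that is part of the B cell co-receptor and is present on many cell types, was 0.62 and 0.59 higher, and its other probe gave 0.46 and 0.55. B cell markers had medians of 2.48 at 3 h (5 of 7 measured called higher) and 2.36 at 0 h (6 of 7). Dendritic cell markers had medians of 0.21 and 0.60, with 0 of 7 and 1 of 5 called higher, and their summed signal was 170 and 135 in LysM-St18flox cells, against 165 and 125 in wild-type cells. The dendritic cell sum is weighted to its brightest probe, Siglech, at 7.01 and 6.69, against 7.10 and 6.71 (log2). The part of either cell type in the values of Itgax and Cd81 was not tested.

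In the other direction, Itga5 differed by -0.75 at 3 h and -0.97 at 0 h, and Itga7 by -0.81 and -0.79. Mesothelial and fibroblast markers were lower alongside, with medians of -1.51 and -1.09 and with 7 of 9 and 5 of 8 measured markers called lower, and their part was not tested. In the group of Itgb1 and its alpha partners, by brightest probes Itga4 was the only measured gene above 0 (0.19 at 3 h and 0.44 at 0 h, of 8 and 7 genes), and the group medians were -0.30 and -0.50. The other Itga4 probe gave -0.21 at 3 h, and the other Itgb1 probe -0.16 and -0.17. The dimmer Itga6 probes gave 0.07 and 0.02 at 3 h and -0.02 and 0.97 at 0 h. The other Itga9 probe gave -0.01 and 0.11. The signs in this group thus depend in part on the probe. Over all measured genes 47.5% and 46.9% were above 0. Itga1 differed by -0.48 at 3 h, and its other probe by -0.87.

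Itgb2 differed by -0.20 at 3 h and -0.91 at 0 h, and Itgb7 by -0.35 and -0.86. For these the gap at 0 h followed a wild-type 0 h level (6.41 and 5.60) above the other 3 arrays. Neutrophil markers, which share Itgb2 and Itgam with macrophages, had medians of -0.43 at 3 h and -0.86 at 0 h, with 3 of 7 and 4 of 8 measured markers called lower. In the other direction, Retnlg was called higher at 3 h (1.11), and 4 of the 8 were above 0 at 0 h. Their summed signal was 172 and 162 in LysM-St18flox cells, against 247 and 159 in wild-type cells. That sum is weighted to its brightest probe, Csf3r, at 7.08 and 7.02, against 7.09 and 6.33 (log2). Ngp was below the background limit on all 4 arrays, and the part of neutrophils was not tested. Itgal differed by -0.31 and -0.07, Itgam by -0.10 and -0.28 (its dimmer probe by -0.94 and -1.06), and Itgb5 by -0.28 and -0.43. By brightest probes, Itgav, Cd44, Cd47, Selplg, Alcam and Pvr lay between -0.05 and 0.11 at 3 h and between -0.38 and 0.13 at 0 h. The remaining members measured at both times lay, by brightest probes, between -0.35 and 0.33 at 3 h and between -0.70 and 0.44 at 0 h. Dimmer probes of some members fell outside these ranges. The other Cd82 probes gave 0.31, 0.68 and 2.05 at 0 h, and the dimmest Cd44 probe gave 0.75. Vcam1 differed by 0.06 at 3 h and was at least 1.59-fold lower at 0 h in LysM-St18flox cells, near the floor of the array.

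The wider adhesion machinery was read from 96 further genes, all with a probe. They comprised 7 integrins outside the members, 41 adaptors and activators, 20 matrix and soluble ligands, and 28 other adhesion molecules. After LPS, LysM-St18flox cells had 7 of 69 measured genes called higher and 3 called lower, and wild-type cells had 9 and 4 of 69. These shares (10.1% and 4.35%, and 13.0% and 5.80%) stand beside the same backgrounds as the members. Nectin2, a relative of Pvr, was 3.59-fold higher in LysM-St18flox cells and 2.35-fold higher in wild-type cells, and Jam2, a junction molecule, 2.09-fold and 2.53-fold. Tns1, an actin-linked adaptor at integrin contacts, was 2.76-fold and 3.11-fold lower, and its other probe gave -1.15 and -1.12.

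Apbb1ip (RIAM), which brings talin to integrins, was higher by 1.12 in LysM-St18flox cells and 1.14 in wild-type cells, and its other probe gave 0.85 and 0.74. Rap1b, a small GTPase that activates integrins, differed by 1.06 in LysM-St18flox cells and 0.89 in wild-type cells. Rapgef3 (Epac1), an exchange factor for Rap GTPases, was 6.04-fold lower in LysM-St18flox cells and at least 3.18-fold lower in wild-type cells. The scaffold Bcar1 (p130Cas) differed by 1.93 and -0.40, and the collagen-binding subunit Itga10 by -1.14 and -0.54. Others were called in wild-type cells only. The T cell adaptor Skap1 differed by 0.24 in LysM-St18flox cells, against 2.42 in wild-type cells, the tetraspanin Cd53 by 0.12 against 1.31, and the tetraspanin Cd37 by -0.17 against -1.07. Focal adhesion kinase Ptk2 differed by -0.73 against -1.39, and E-cadherin Cdh1 by -0.47 against -1.26. Icam4 was higher by at least 2.20-fold in LysM-St18flox cells and by 2.31-fold in wild-type cells. Levels were near the floor of the array for Icam4 (-4.14) and Skap1 (-3.63) in wild-type cells at 0 h. The same held for Rapgef3 (-4.38) and Itga10 (-4.06) in LysM-St18flox cells at 3 h. Whether any of these responses differs between genotypes was not tested. By group, calls higher and lower in LysM-St18flox cells were 0 and 1 of 2 integrins, 4 and 2 of 37 adaptors, 1 and 0 of 11 ligands, and 2 and 0 of 19 other molecules, and in wild-type cells 0 and 0 of 2, 5 and 2 of 38, 0 and 0 of 10, and 4 and 2 of 19. These counts leave out bounds, some of them past 2-fold. After LPS the adaptor group's Src was higher by at least 9.23-fold in LysM-St18flox cells and 22.7-fold in wild-type cells. Has1, in the ligand group, was higher by at least 9.26-fold and 18.6-fold, and Sele by at least 4.56-fold and 2.33-fold. In wild-type cells Lamb1 and Has2 were higher by at least 2.88-fold and 2.04-fold, and Cd226 was lower by at least 3.77-fold. For Skap1, Cd53 and Cd37 the wild-type 0 h array stood apart. Skap1 was at -3.63 there and at -1.76 or above on the other arrays, Cd53 at 3.01 and otherwise at 4.29 or above, and Cd37 at 4.66 and otherwise at 3.68 or below. For Bcar1 it was the LysM-St18flox 3 h array that stood apart, at -1.49 and otherwise at -3.11 or below.

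Between genotypes, 4 of 73 of these genes were called higher in LysM-St18flox cells and 4 lower at 3 h, and 6 of 66 higher and 2 lower at 0 h. These are 5.48% and 5.48% at 3 h, against 1.82% and 1.4% of all genes, and 9.09% and 3.03% at 0 h, against 3.04% and 3.03%. Cd5 (1.68 at 3 h and 2.02 at 0 h), Cd6 (1.58 and 1.33) and Thy1 (1.18 and 1.02), which are known for their expression on T cells, were called at both times. T and NK cell markers had medians of 1.02 and 1.1, with 4 of 8 and 3 of 6 measured called higher, Cd4 called lower at 0 h (-1.04), and Cd8a and Ncr1 below the background limit on all 4 arrays. Their summed signal was 11.2 and 9.03 in LysM-St18flox cells, against 6.02 and 6.27 in wild-type cells. B cell markers had medians of 2.48 at 3 h and 2.36 at 0 h. The part of either cell type was not tested. Bcar1 was called at 3 h (2.02), and Skap1 (1.86), Cd53 (1.28) and Selp (P-selectin; 1.05) at 0 h. Of the matrix and soluble ligands, 0 of 12 were called higher and 2 lower at 3 h, and 0 of 9 higher and 2 lower at 0 h, with Col1a1 at -1.89 at 3 h and -1.26 at 0 h, Col4a1 at -1.20 at 3 h and Lama5 at -1.55 at 0 h. The integrin activator Fermt2 (kindlin-2, -1.51) and the kinase Src (-1.29) were also lower at 3 h, while another Src probe gave -0.03. Col4a1 (-4.62) and Fermt2 (-4.22) were near the floor of the array in LysM-St18flox cells at 3 h. The same held at 0 h for Lama5 (-3.78) in LysM-St18flox cells and for Skap1 (-3.63) in wild-type cells. Bounds past 2-fold among the matrix and soluble ligands went both ways. At 3 h Edil3 was higher by at least 2.16-fold, and Vtn and Has2 were lower by at least 2.05-fold and 3.09-fold. At 0 h Lamb1 was higher by at least 6.32-fold and Col4a1 lower by at least 2.16-fold. The adaptors held 1 call higher and 2 lower of 39 at 3 h and 1 higher and 0 lower of 37 at 0 h, the other adhesion molecules 3 higher of 20 and 5 higher of 18 with none lower, and the 2 measured integrins none. The lower calls of Col1a1, Col4a1 and Lama5 came beside the lower mesothelial and fibroblast markers, and that list holds Col1a1 as well. In all, 4 of the 96 genes (Col1a1, Icam2, Itga2b and Selp) were also in a marker list.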

How the data were processed

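Per the labels' protocols, 100 ng of TRIzol-extracted total RNA was labelled with Cy3. The deposited spot intensity values came from Agilent Feature Extraction 11.0.1.1 (submitters' processing notes), with background subtraction and detrending and no normalization between arrays, per the file headers. The 4 arrays shared 1 slide and 1 scan session. The deposited value table holds log2 values of 25482 probes. All its columns had a median of 9.58 and correlated with their own array at 0.99994 or more, and how it was normalized was not stated.

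From the intensities, spots of a probe were averaged on the log2 scale without control spots and outlier flags, and the array's 75th percentile was subtracted. Of 56605 probes, 32994 were named through RefSeq accessions (GRCm38.p6 gene table, used for names; the headers name mm9). A call was a difference of at least 2-fold. In the filter, a probe had to be well above background on each array compared. Scripts ran in Python 3.11.15 and R 4.3.3 (limma 3.58.1, normexp only) and were tested on simulated data. The members and lists were chosen with earlier results of these data known. Every member is named. Of the 96 further adhesion genes, the 6 largest calls in each direction were named, apart from 1 that is not reported here. The promoter rule was applied to members that RefSeq's promoter table holds. Alternatives were normexp on median spot signals, quantile normalization, median centring, the percentile over detected probes, the mean of all measured probes, no filter, a signal of at least 100, and the deposited values.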

Additional observations from a re-analysis of the deposited data

Results flagged for a closer look

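Some members had effects of opposite sign in the groups compared, and none of these differences was tested. After LPS, Itgb2 differed by 0.08 in LysM-St18flox cells and by -0.63 in wild-type cells, a gap of 0.71. Itga3 differed by 0.11 and -0.45, a gap of 0.56, and Cd9 by 0.14 and -0.09, a gap of 0.23. Between genotypes, Icam1 differed by -0.04 at 3 h and by 1.20 at 0 h, a gap of -1.24. Cd82 differed by -0.06 and 0.27, a gap of -0.33, Cd47 by -0.05 and 0.00, a gap of -0.0536, and Cd9 by 0.06 and -0.17, a gap of 0.23. The spot error of a gap of this kind was 0.07 (SD), above the gap of Cd47. The signs also depend on the processing: over the 8 alternatives, Itgb2 after LPS in LysM-St18flox cells ran between -0.23 and 0.32 and kept its sign in 5. The sign was kept in 6 for Cd9 after LPS in LysM-St18flox cells and for Cd9 between genotypes at 0 h, and in 7 for Cd82 at 3 h and Cd47 at 0 h. Each of these gaps uses the wild-type 0 h array, where pairs of probes of the same gene disagreed by a median of 0.39. The spot error does not cover that disagreement.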

How the results depend on the processing

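Of 21 calls among the members, 14 stayed past 2-fold in their direction under each of the 8 alternatives that could give a value. Of 163 alternative values of these calls, 1 changed sign: Itgb3 at 0 h, -0.17 when all measured probes were averaged. Of 902 alternative values of members that were not called, 52 changed sign. The calls higher between genotypes were 1 at 0 h and 0 at 3 h with normexp and with averaged probes, and 1 at 0 h with a signal of at least 100. The Icam1 call in the difference of the responses left a count of 0 with normexp and with that signal minimum, which drops Icam1 from the comparison. Calls lower after LPS in LysM-St18flox cells were 2 (Itga6 and Itgb5) with quantile normalization and in the deposited values. With median centring, calls lower were 0 after LPS in wild-type cells and 3 (Itga5, Itgb2 and Itgb7) between genotypes at 0 h. The wild-type LPS median of the members was -0.06 in the deposited values.

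Over all genes, median centring moved 3 medians by more than 0.1, to 0.14 against -0.09 (LPS, LysM-St18flox), -0.18 against -0.03 (genotype, 0 h) and 0.19 against 0.03 (difference of responses). The share of calls that were higher was then 65.4% against 47.5%, 29.9% against 50.1% and 73.8% against 54.7%. Its counts were 730 lower against 1164, 678 lower against 384 and 587 higher against 358. With normexp, 757 genes were lower after LPS in LysM-St18flox cells against 1164, 229 higher and 251 lower between genotypes at 0 h against 385 and 384, 137 and 96 at 3 h against 237 and 183, and 218 and 166 in the difference of responses against 358 and 297. A signal of at least 100 gave 227 higher at 0 h, 155 and 94 at 3 h and 231 and 172 in the difference. The deposited values gave 118 lower at 3 h. With no background filter the counts were 1835 and 2232 (LPS, LysM-St18flox), 2215 and 2767 (LPS, wild-type, against 1138 and 1464), 1473 and 1347 (0 h), 992 and 1039 (3 h), and 1694 and 1869 (difference). The causes were not tested. A slide block was not run, since all arrays lay on 1 slide. No paired analysis was possible because each group has 1 array. Signal near background limits Itga1, Itgae, Itgb8 and Vcam1 at 0 h. Itga7 and Pecam1 were dim on every array, at no more than 107.6 and 105.6 units.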
